A study of Mus musculus with 3 samples.

Results

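Runx3 peaks and H3K4me1-marked regions were examined at 9 genes of the lytic granule route: Rab27a, Unc13d, Stx11, Stxbp2, Lyst, Lamp1, Srgn, Ctsc and Ctsw. The genes were chosen by symbol in an mm9 annotation, 9 of 22350 protein-coding genes on the chromosomes that the lists cover, and each gene body was taken with 20 kb on either side. The data come from 3 chromatin immunoprecipitation sequencing (ChIP-seq) samples of resting (freshly isolated and not activated) splenic NK cells (NKC) of ICR mice, 1 sample per group. The groups differ only in what was added to the chromatin: a polyclonal antibody to the transcription factor Runx3, a monoclonal antibody to H3K4me1 (monomethylation of histone H3 on lysine 4), or non-immune rabbit serum (NIS), the control of the peak calling. All 3 samples share the strain and the fixation in 1% formaldehyde, and no genetic change or treatment is given for any of them. The age, sex and number of the mice are not given in the sources used here. The labels name NKp46 as the sorting marker and the study's methods name DX5.

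Cytotoxic lymphocytes kill by releasing lytic granules, which are secretory lysosomes, at the contact with the target cell. Serglycin packs perforin and granzymes inside the granule, cathepsin C activates granzymes by removing a dipeptide, and Lyst controls the size and traffic of lysosomes. At the plasma membrane the small GTPase Rab27a docks the granule, Unc13d primes it, and the SNARE protein syntaxin 11 with its partner Stxbp2 brings about fusion. H3K4me1 marks enhancers and also borders promoters in use.

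The deposited data hold 1 list of 15524 Runx3 peaks (median width 825 bp) and 1 list of 49902 H3K4me1 regions (median width 1801 bp). Both lists hold positions without scores, so the depth behind a region is unknown, no strength of binding was compared, and no replicate error or test can be given. A list of positions also does not tell in what share of the cells a region was bound. As a check of the cell type, 5 of 5 NK markers (Ncr1, Klrb1c, Tbx21, Eomes and Klrk1) had a Runx3 peak within 20 kb, with 29.8% to 81.9% of their windows under H3K4me1. Of the T cell markers 2 of 5 had a peak (Cd3e and Cd3g), with 0 to 43.4% under H3K4me1, and Cd4, Cd8a and Cd8b1 had 0 peaks. Of the B cell markers 4 of 5 had a peak (0 to 30.5% under H3K4me1), as did 4 of 5 myeloid markers (0 to 47.7%, the highest being Itgam, which NKC also express). Ms4a1 and Lyz2 had 0 regions in both lists. Of all protein-coding genes 51.0% had a peak within 20 kb, and by this measure B cell and myeloid markers were little apart from NK markers. A peak within 1 kb of an own transcription start was found at 4 of 5 NK, 0 T cell, 0 B cell and 1 myeloid marker, against 28.2% of protein-coding genes. What part other cells had in the results was not tested.

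A Runx3 peak lay within 20 kb of 8 of the 9 genes, against 51.0% of all protein-coding genes. In total there were 16 peaks in the 9 windows, with a median of 1 per gene, the same as the median over all protein-coding genes. Srgn had 5, Rab27a 3, Unc13d and Ctsw 2 each, and Stx11, Stxbp2, Lyst and Ctsc 1 each, whereas Lamp1 had 0. As many peaks as at Srgn, 5 or more, were found at 4.08% of protein-coding genes, and 3 or more, as at Rab27a, at 14.1%. Because windows differ in length, from 43259 bp at Ctsw to 227035 bp at Lyst, the counts were also taken per 100 kb. Srgn then had 6.79 peaks, Ctsw 4.62, Unc13d 3.58, Rab27a 3.24, Stxbp2 1.90, Stx11 1.56, Ctsc 1.37, Lyst 0.44 and Lamp1 0, with a median of 1.90 over the 9 genes and of 0.459 over all protein-coding genes. Thus 7 of the 9 genes were above the median gene, and Lyst, with 1 peak in the longest window, was just below it.

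**Figure D1:**
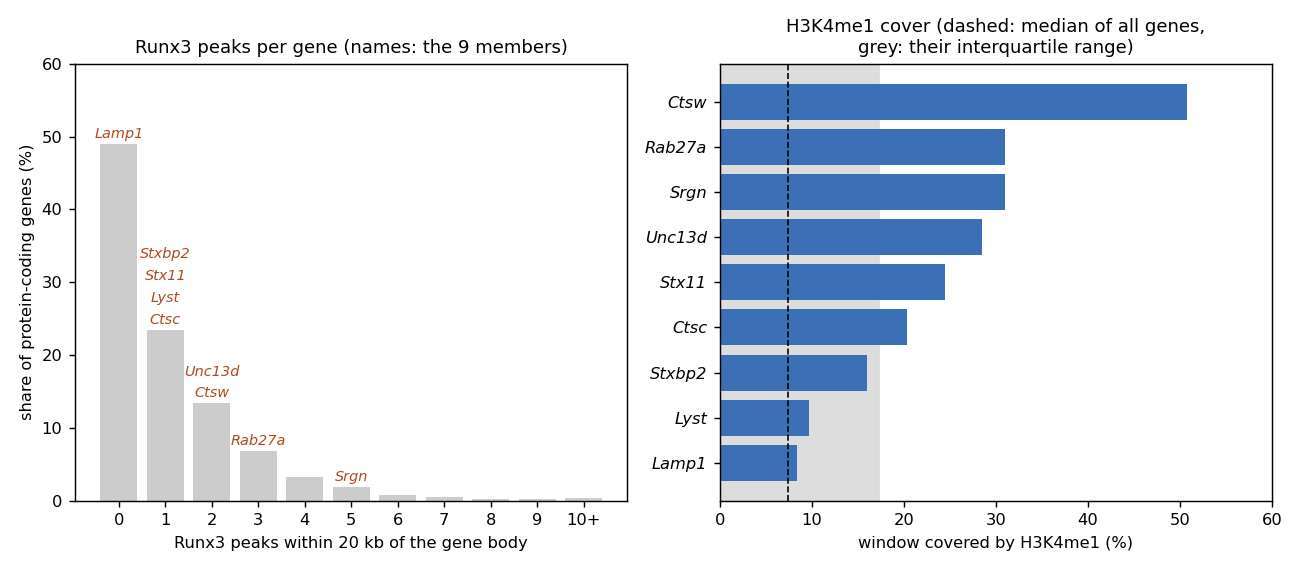
Left, the share of 22350 protein-coding genes (%) with each number of Runx3 peaks within 20 kb of the gene body, with the names of the 9 genes above the bar they belong to. Right, the share of each gene's window covered by H3K4me1 (%), with the median of all protein-coding genes as a dashed line and their interquartile range in grey. Srgn stands at 5 peaks and Lamp1 at 0, and all 9 bars on the right pass the median of 7.38%.

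A peak touched the 1 kb on either side of an own transcription start site (TSS) in 7 of the 9 genes, against 28.2% of protein-coding genes. These were Rab27a, Unc13d, Stx11, Lyst, Srgn, Ctsc and Ctsw, and in each of them a peak covered a start base itself. At the genes without such a peak, Stxbp2 and Lamp1, the nearest peak was 8988 and 53325 bp from a start. Of the 16 peaks, 8 were of this start class and 8 lay elsewhere in the windows. With a start of any gene counted, 10 of the 16 were centred under 1 kb from one, against 6072 of all 15524 Runx3 peaks. The windows were drawn around genes, so each of them holds a start.

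**Figure D2:**
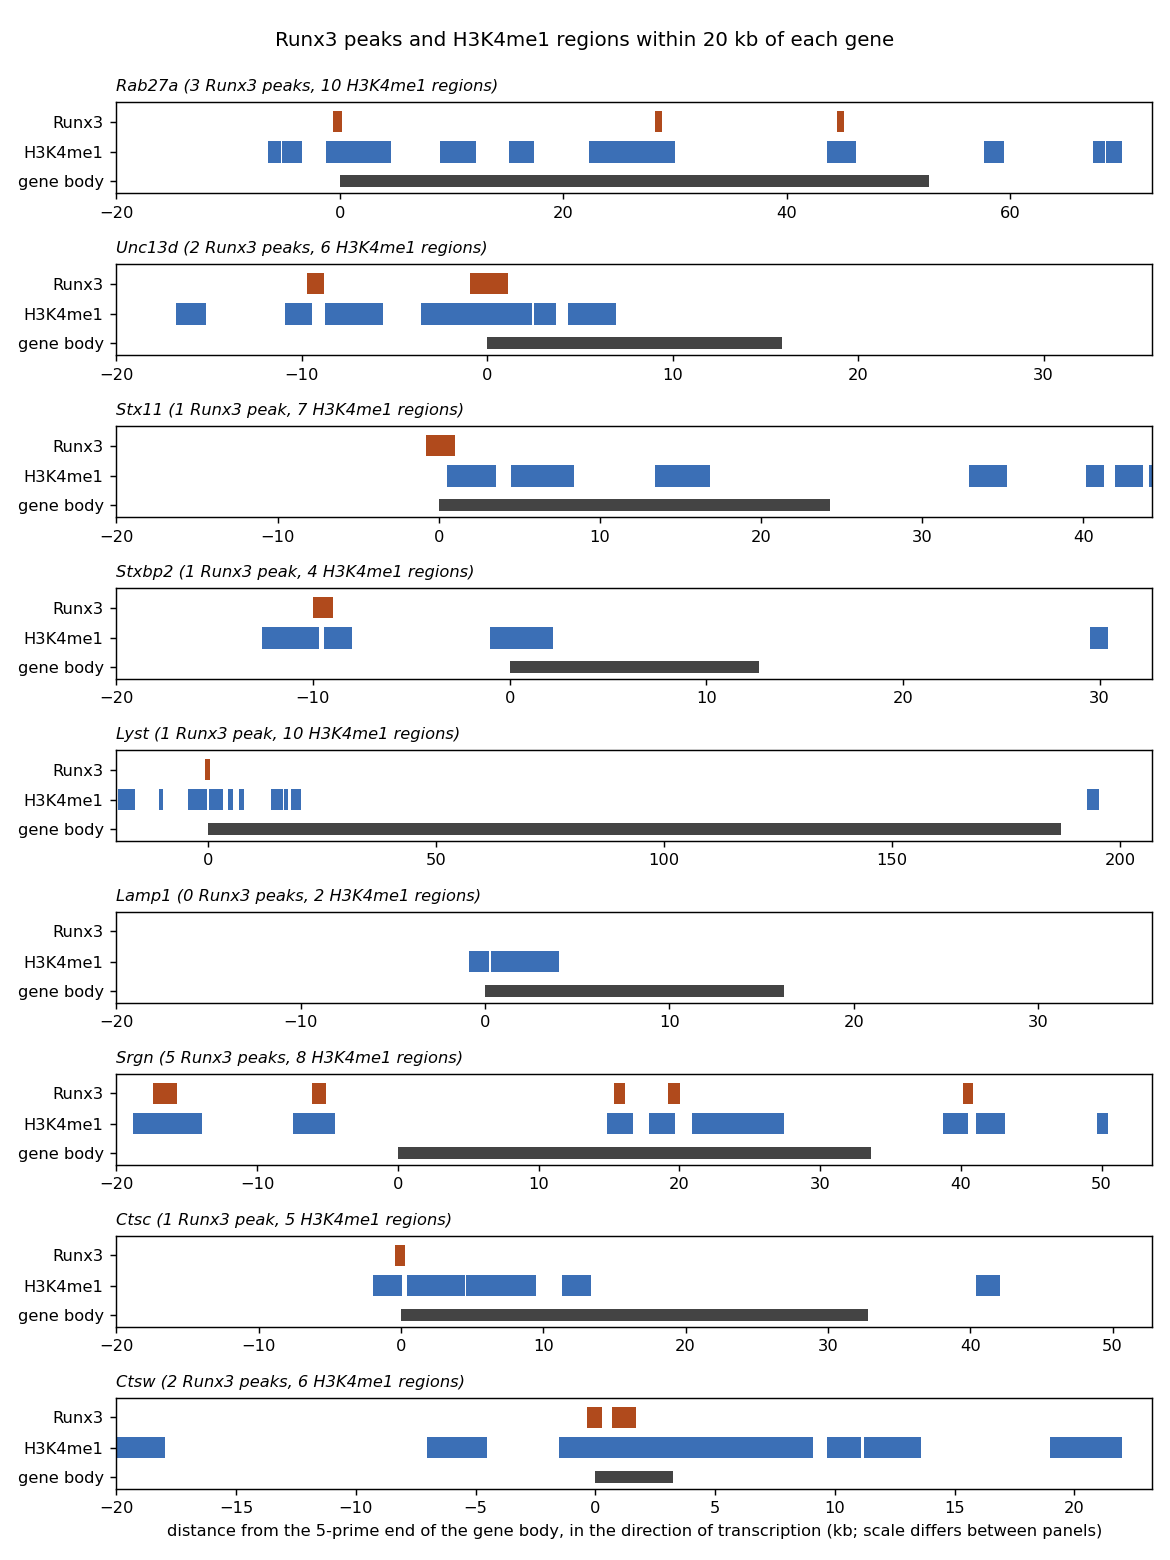
Runx3 peaks (brown), H3K4me1 regions (blue) and the gene body (dark grey) of the 9 genes, plotted by distance in kb from the 5′ end of the gene body in the direction of transcription, with 20 kb on either side and a separate scale in each panel. Peaks lie over a start in 7 panels, at Srgn over the downstream starts inside the gene body, both Stxbp2 and Lamp1 lack one there, and at Lyst the regions crowd around the first part of a long gene.

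Of the genes for granule content, Srgn encodes serglycin, the proteoglycan core protein that holds granzymes and perforin in the granule. In mm9 it lies at chr10:61956581-61990199 on the minus strand, with 5 annotated start sites in 2 groups, 3 downstream and 2 at the 5′ end. A peak of 831 bp at chr10:61970163-61970993 covered the 3 downstream starts, over coding and UTR exons. A second peak of 795 bp lay in an intron, 3619 bp upstream of the nearest of these starts (chr10:61974067-61974861). The other starts had no peak over them, and the nearest peak of 966 bp was intergenic, with its midpoint 5595 bp upstream (chr10:61995312-61996277). Farther upstream, at 16546 bp, a peak of 1652 bp lay in an intron of 2510003E04Rik (chr10:62005920-62007571) and was wider than 98.1% of all Runx3 peaks. The fifth peak (722 bp, chr10:61949340-61950061) lay past the 3′ end of Srgn and only 147 bp from the start of Vps26a, a gene of the retromer. The intron peak and the intergenic peak are shown because both held RUNX and ETS words near their centre and were wholly inside H3K4me1. The lines give 300 bp about the midpoint on the strand of Srgn, from mm9 chr10:61974314-61974613 and chr10:61995644-61995943. Capitals mark the RUNX words (TGTGGT with its spellings TGTGGC plus TGCGGT plus TGCGGC) and the ETS words (AGGAAGT or CGGAAGT), each on either strand.
Srgn intron peak: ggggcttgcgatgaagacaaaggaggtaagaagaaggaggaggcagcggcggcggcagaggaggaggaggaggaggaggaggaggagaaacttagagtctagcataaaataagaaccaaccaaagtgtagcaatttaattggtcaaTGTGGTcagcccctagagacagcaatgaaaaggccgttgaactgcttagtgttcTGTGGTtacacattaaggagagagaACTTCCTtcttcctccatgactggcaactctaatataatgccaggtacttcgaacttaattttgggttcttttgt
Srgn upstream peak: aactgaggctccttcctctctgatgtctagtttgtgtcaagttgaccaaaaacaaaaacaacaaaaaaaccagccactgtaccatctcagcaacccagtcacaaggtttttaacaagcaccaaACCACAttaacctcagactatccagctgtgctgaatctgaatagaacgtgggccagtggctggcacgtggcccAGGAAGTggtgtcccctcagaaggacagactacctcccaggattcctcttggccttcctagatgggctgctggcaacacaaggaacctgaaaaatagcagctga

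Over the whole intron peak the word TGTGGT occurred 3 times, 2 of them in the stretch shown, and a RUNX and an ETS word began 26 bp apart. The whole upstream peak held 4 RUNX words, TGTGGT once and TGTGGC 3 times, and its nearest ETS word began 74 bp from one of them. By contrast, the Srgn start peak held 1 RUNX word and 0 ETS words over its whole width.

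Ctsc encodes cathepsin C (dipeptidyl peptidase I), which activates granzymes in the granule. It lies at chr7:95426595-95459398 on the plus strand and had a single Runx3 peak of 755 bp (chr7:95426144-95426898), with its midpoint 74 bp upstream of the first start. This was the one peak of the 16 without a RUNX word anywhere in its width. It held 1 ETS word and 1 SP1 word (GGGCGG), both in its central 300 bp. H3K4me1 covered 67.2% of the peak, up to chr7:95426650, which lies just past the cluster of starts at the 5′ end, and the next region began at chr7:95427032. The 300 bp before the first start (chr7:95426295-95426594, plus strand) are shown as the case without a RUNX word, with the ETS word in capitals.
Ctsc start: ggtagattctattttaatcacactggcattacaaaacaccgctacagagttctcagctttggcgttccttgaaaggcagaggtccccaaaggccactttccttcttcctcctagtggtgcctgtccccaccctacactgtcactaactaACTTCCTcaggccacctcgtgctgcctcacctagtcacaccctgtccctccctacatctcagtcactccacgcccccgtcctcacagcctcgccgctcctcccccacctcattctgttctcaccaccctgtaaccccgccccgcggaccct

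Ctsw encodes cathepsin W, a cysteine protease found mainly in NKC and CD8 T cells. This short gene of 3259 bp (chr19:5465240-5468498, minus strand) had 2 peaks. The first (607 bp, chr19:5468225-5468831) was centred 30 bp upstream of the start and was narrower than most peaks, only 12.0% of all Runx3 peaks being narrower still. The second (1015 bp, chr19:5466789-5467803) had its midpoint in an intron, 1202 bp downstream of the start. One H3K4me1 region of 10613 bp (chr19:5459409-5470021) covered the whole gene with both peaks, so 100% of the gene body was marked, and it ran on into the neighbouring Fibp. The start peak held a single RUNX word, TGTGGC, and the intron peak held TGTGGT and TGTGGC once each together with an ETS word.

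Of the genes for lysosome traffic and membrane, Lyst encodes the lysosomal trafficking regulator, whose loss gives giant granules in beige mice. It is the longest of the 9 genes at 187035 bp (chr13:13682676-13869710, plus strand). Its single peak of 1076 bp (chr13:13682093-13683168) was centred 46 bp upstream of its start. The start lay in neither of the nearest H3K4me1 regions but in a gap of 344 bp between them, and the peak covered the gap and reached into both regions. Of the 10 H3K4me1 regions in the window, 6 lay inside the gene, the last of them centred 19340 bp from the start, and the mark covered only 5.78% of the gene body. The peak held 5 RUNX words, 4.65 per kb, of all 4 spellings, and 5 SP1 words, but 0 ETS words. The 300 bp before the start (chr13:13682376-13682675, plus strand) are shown with their RUNX word in capitals.
Lyst start: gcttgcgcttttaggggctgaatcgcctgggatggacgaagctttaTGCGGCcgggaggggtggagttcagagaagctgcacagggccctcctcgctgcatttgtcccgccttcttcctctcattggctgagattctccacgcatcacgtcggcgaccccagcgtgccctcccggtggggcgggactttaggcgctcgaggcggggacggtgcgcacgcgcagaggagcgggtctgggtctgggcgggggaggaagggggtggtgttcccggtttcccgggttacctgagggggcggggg

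Lamp1 encodes a glycoprotein of the lysosomal membrane that appears on the cell surface on degranulation, where it is known as CD107a. At chr8:13159135-13175338 (plus strand) it had 0 Runx3 peaks in its window of 56204 bp, but it was not without H3K4me1. Its start lay inside a region of 1085 bp, followed by another of 3640 bp that covered the beginning of the gene body. These were the only 2 H3K4me1 regions in the window and put 8.41% of it under the mark, the lowest share of the 9 genes and slightly above the median of all genes (7.38%).

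**Figure D3:**
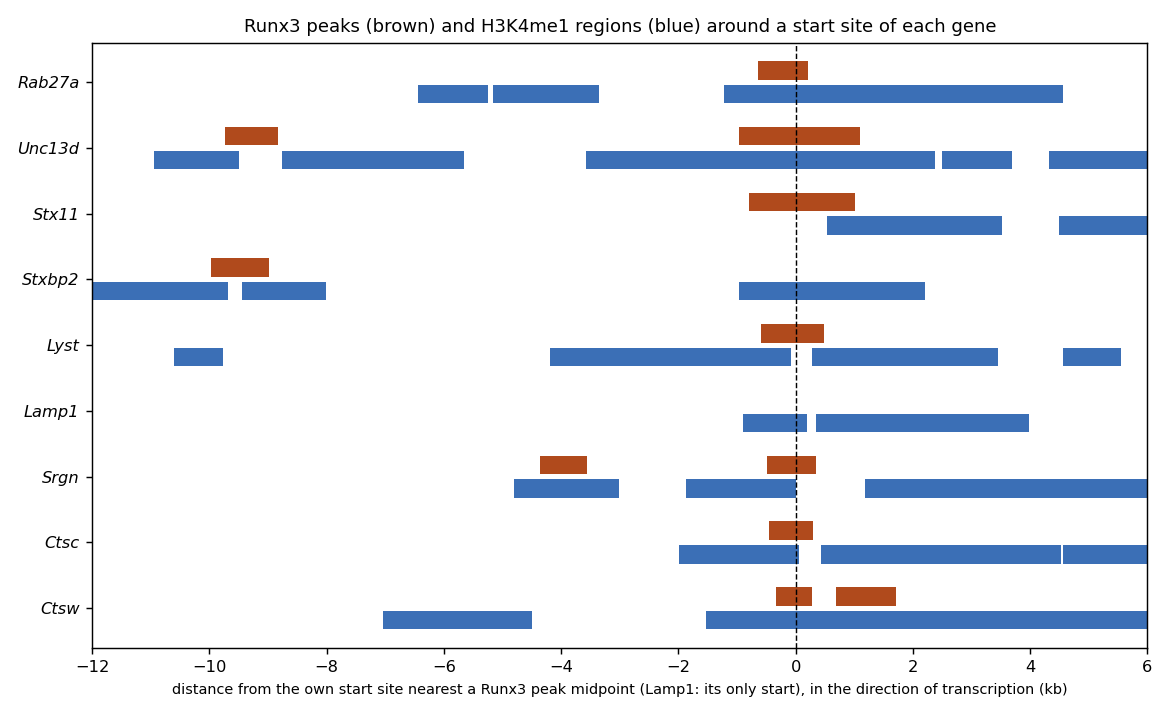
Runx3 peaks (brown) and H3K4me1 regions (blue) around 1 start site of each gene (dashed line at 0, the own start nearest a peak midpoint, and the only start of Lamp1), by distance in kb in the direction of transcription. At Lyst the start lies in the gap between 2 regions, at Stx11 the region begins inside the gene, and at Unc13d, Rab27a and Ctsw the start peak lies wholly inside a region.

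Of the genes for docking and priming, Rab27a encodes the GTPase that tethers granules to the plasma membrane. It lies at chr9:72892672-72945399 on the plus strand and had 3 peaks, all wholly inside H3K4me1. The start peak (854 bp, chr9:72892032-72892885) was centred 214 bp upstream of the only annotated start. The others lay in introns, with midpoints 28519 and 44839 bp downstream of the start (634 bp at chr9:72920875-72921508 and 658 bp at chr9:72937183-72937840). They were narrow, 15.6% and 19.2% of all peaks being narrower. For both, the nearest start of any gene belonged to 2410004A20Rik, past the 3′ end of Rab27a, at 28452 and 12132 bp, and their assignment to Rab27a follows from their place inside it. The sequences are shown because the start and intron peaks differed in their words. The lines give 300 bp about each midpoint on the plus strand, chr9:72892308-72892607, chr9:72921041-72921340 and chr9:72937361-72937660, with RUNX and ETS words in capitals.
Rab27a start: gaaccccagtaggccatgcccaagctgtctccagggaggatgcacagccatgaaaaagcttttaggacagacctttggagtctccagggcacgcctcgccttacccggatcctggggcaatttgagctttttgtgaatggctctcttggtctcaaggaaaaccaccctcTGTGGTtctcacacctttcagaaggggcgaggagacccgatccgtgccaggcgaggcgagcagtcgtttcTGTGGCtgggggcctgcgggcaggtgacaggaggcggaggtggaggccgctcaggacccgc
Rab27a intron, nearer the start: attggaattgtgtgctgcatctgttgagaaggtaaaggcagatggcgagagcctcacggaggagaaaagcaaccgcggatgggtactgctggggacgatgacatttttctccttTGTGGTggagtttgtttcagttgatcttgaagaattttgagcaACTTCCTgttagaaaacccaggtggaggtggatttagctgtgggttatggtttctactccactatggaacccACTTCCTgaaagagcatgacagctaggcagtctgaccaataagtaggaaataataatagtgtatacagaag
Rab27a intron, farther from the start: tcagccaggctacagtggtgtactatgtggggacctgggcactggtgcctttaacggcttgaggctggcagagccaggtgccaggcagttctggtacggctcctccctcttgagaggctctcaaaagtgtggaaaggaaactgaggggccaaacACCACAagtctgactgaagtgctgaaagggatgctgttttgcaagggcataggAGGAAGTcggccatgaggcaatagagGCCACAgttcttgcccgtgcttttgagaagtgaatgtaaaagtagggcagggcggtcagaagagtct

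The start peak held 3 RUNX words, 1 TGTGGT with 1 TGTGGC with 1 TGCGGT, but 0 ETS words. It was the only one of the 16 with the T-box word AGGTGTGA, which on the minus strand lay at chr9:72892485-72892492, next to the TGTGGT word. The intron peak nearer the start held 2 RUNX and 2 ETS words, with the closest pair of starts 43 bp apart. The farther one held 4 RUNX words, at 6.08 per kb the highest density of the 16 peaks, and an ETS word 26 bp from one of them.

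Unc13d encodes the factor that primes docked granules for fusion. It lies at chr11:115923409-115939275 on the minus strand and had the widest peak of the 16, at 2067 bp (chr11:115938160-115940226), wider than 99.6% of all Runx3 peaks. This peak covered 6 of its 7 annotated start sites and lay wholly inside an H3K4me1 region of 5947 bp. It held 6 RUNX words, 3 TGTGGT and 3 TGCGGC. The second peak (904 bp, chr11:115948084-115948987) had its midpoint at -9260 bp from the nearest Unc13d start but 226 bp from the start of Wbp2, which encodes a WW domain binding protein, and only 27.0% of it was covered by H3K4me1.

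Of the fusion genes, Stx11 encodes syntaxin 11. It lies at chr10:12659787-12684065 on the minus strand and had 1 broad peak of 1805 bp (chr10:12683051-12684855), wider than 98.9% of all peaks, with its midpoint 112 bp downstream of the start. H3K4me1 was found on the gene side only. The nearest region ended 543 bp inside the gene, and just 26.1% of the peak was covered, the lowest share of the 16. The peak held 5 RUNX words, 2 ETS words and 2 AP-1 words (TGACTCA or TGAGTCA). Of the RUNX words 1 lay in the central 300 bp, and the ETS and AP-1 words lay outside it.

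Stxbp2 encodes the partner of syntaxin 11. At chr8:3630955-3643644 (plus strand) it had no peak over the gene or at any of its 14 start sites, 7 of which lay inside H3K4me1. The single peak in its window (990 bp, chr8:3620978-3621967) had its midpoint at -9483 bp from the nearest Stxbp2 start and lay at the start of other genes, 103 bp from that of the noncoding 2900053A13Rik and 156 bp from that of Xab2, which encodes an XPA-binding protein. Like the Lyst peak it covered a gap between H3K4me1 regions, here of 240 bp. Its sequence (chr8:3621322-3621621, plus strand) is shown because it held a RUNX word, TGCGGT on the minus strand, and 2 ETS words of different spelling within 300 bp, the closest pair of starts being 47 bp apart.
Stxbp2 window, start of 2900053A13Rik: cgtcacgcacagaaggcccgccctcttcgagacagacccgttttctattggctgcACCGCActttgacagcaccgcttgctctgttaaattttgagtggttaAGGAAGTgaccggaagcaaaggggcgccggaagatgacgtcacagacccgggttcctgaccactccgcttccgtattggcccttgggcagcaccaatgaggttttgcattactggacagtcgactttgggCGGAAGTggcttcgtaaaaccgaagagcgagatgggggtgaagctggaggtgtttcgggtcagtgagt

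Not every peak in a window was nearest to the gene for which the window was drawn. The nearest annotated start was the gene's own for 10 of the 16 peaks, for which no share over the windows of all genes is given here. For 3 others a start of another gene was under 1 kb away, Vps26a in the window of Srgn, Wbp2 in that of Unc13d and 2900053A13Rik with Xab2 in that of Stxbp2. The remaining 3 were the 2 intron peaks of Rab27a and the peak 16546 bp upstream of Srgn.

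The marked state was then compared over the 9 genes. H3K4me1 regions were found in all 9 windows, 58 in total, against 74.0% of protein-coding genes with at least 1. The share of the window under the mark was 50.8% at Ctsw, 31% at Rab27a, 30.9% at Srgn, 28.5% at Unc13d, 24.5% at Stx11, 20.3% at Ctsc, 16% at Stxbp2, 9.70% at Lyst and 8.41% at Lamp1. The median was 24.5%, against 7.38% over all protein-coding genes (interquartile range 0 to 17.3%), and 6 of the 9 were above the upper quartile. The regions had a median width of 2313.5 bp (785 to 10613 bp). Of the 58, 18 overlapped a Runx3 peak, for which no share over all H3K4me1 regions is given here. Among the 18, the Stx11 region chr10:12638101-12639998 overlapped a peak outside the window, 20139 bp from the gene body. An own start lay inside a region in 7 of the 9 genes, against 43.6% of protein-coding genes. The exceptions were Stx11 and Lyst, whose starts were 543 and 72 bp from the nearest region, and at Srgn only the 3 downstream starts were inside.

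All 16 Runx3 peaks overlapped an H3K4me1 region (95% Wilson interval 80.6 to 100%, counting error only), against 95.7% of all Runx3 peaks, a share near that background. By midpoint, 12 of 16 lay inside a region, against 83.6%. The 4 peaks with a midpoint outside were those of Stx11, Lyst, Stxbp2 and the Wbp2 start beside Unc13d, and all 4 were within 1 kb of a start of some gene. Over the whole list the midpoint was inside a region in 66.2% of peaks centred under 1 kb from any start and in 94.8% of the others. A peak that overlapped 2 regions, and so covered a whole gap, was seen at Lyst and Stxbp2, 2 of 16, against 12.7% of all peaks and 30.3% of those under 1 kb from a start. The widths of the 16 peaks ran from 607 to 2067 bp with a median of 879 bp, and 10 were wider than the median of all peaks.

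A RUNX word was present in 15 of 16 peaks (93.8%, Wilson interval 71.7 to 98.9%), against 93.3% of all Runx3 peaks and 94.6% of peaks of similar width. In the central 300 bp it was present in 12 of 16, against 79.4% of all peaks and 40.7% of 300 bp windows placed 5 kb downstream of peaks. TGTGGT occurred in 12 peaks, TGTGGC in 8, TGCGGC in 4 and TGCGGT in 3, against 65.5%, 54.1%, 26.1% and 24.7% of all peaks. By these measures the RUNX content of these peaks was close to that of the whole list. In the central 200 bp it was lower, with a RUNX word in 50%, against 69.1% of all peaks.

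ETS words in the central 300 bp were found in 8 of 16 peaks, against 25.8% of all Runx3 peaks and 8.17% of downstream windows. They lay in 6 of the 8 peaks outside the own starts (both intron peaks of Rab27a, 3 of Srgn and the one upstream of Stxbp2) and in 2 of the 8 start peaks, those of Ctsc and the Ctsw intron. Split instead by whether the midpoint lay under 1 kb from a start of any gene, 2 of 10 peaks near a start and 6 of 6 others held an ETS word, against 24.5% and 26.7% of all Runx3 peaks in the same classes. RUNX and ETS words with starts at most 50 bp apart were found in 4 of 16 peaks, 2 of Rab27a, 1 of Srgn and the one upstream of Stxbp2, against 15.9% of all peaks, and none of these 4 was at an own start. SP1 words were in the central 300 bp of 8 of 16 peaks, against 27.7%. By the same split they were in 7 of the 10 peaks near a start of any gene, against 55.2% of all such peaks, and in 1 of the 6 others, against 10.1%. The AP-1 words were in 0 of 16 centres, against 7.61%, and the T-box word in 1, against 2.96%. Over the whole peak, ETS words were in 10 of 16 peaks, SP1 words in 11, AP-1 words in 2 and the T-box word in 1. The shares of all Runx3 peaks were then 41.8%, 41.9%, 16.5% and 5.92%. Those of peaks of similar width were 45.3%, 44.9%, 18.5% and 6.68%. The words were searched on both strands, none contains another, and neighbouring matches may share bases. A match is a stretch of letters and was not tested for binding. With 16 peaks, several of them in 1 window, these counts are descriptions.

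**Figure D4:**
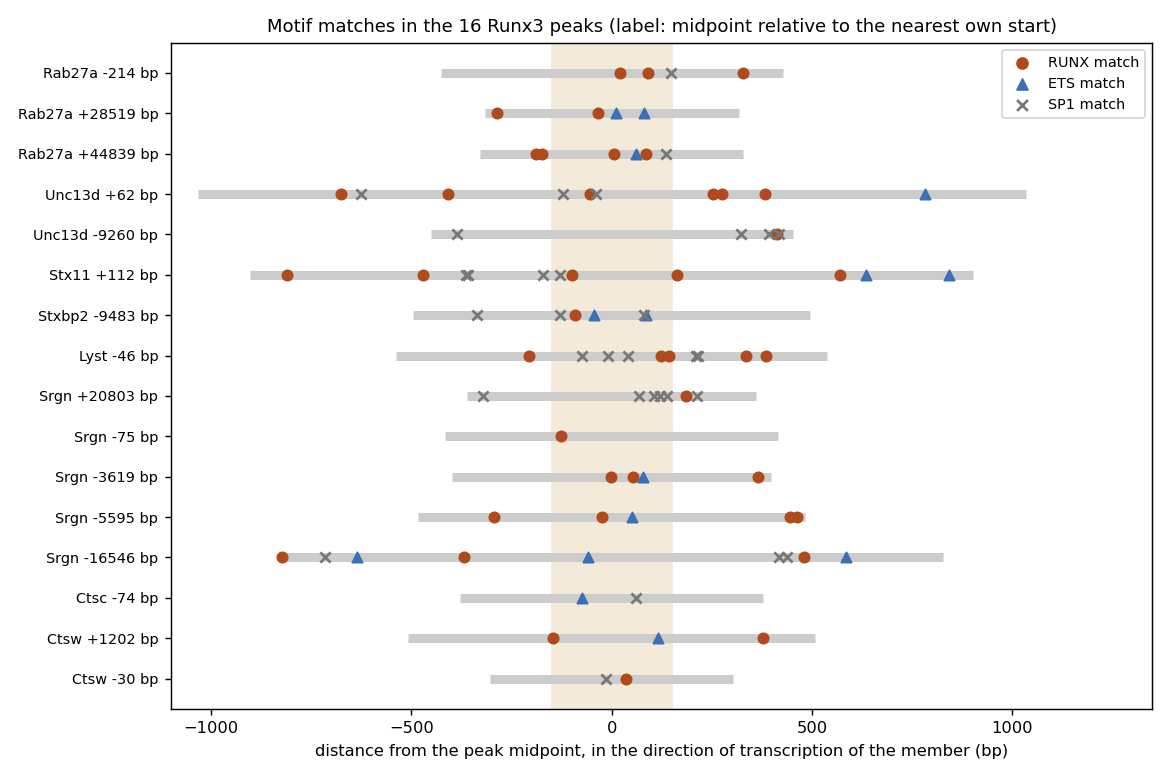
Positions of RUNX (brown circles), ETS (blue triangles) and SP1 (grey crosses) matches in the 16 Runx3 peaks, in bp from the peak midpoint and in the direction of transcription of the gene, with the peak as a grey bar and the central 300 bp shaded. Labels give the midpoint relative to the nearest own start, and the intron peaks of Rab27a and the peaks upstream of Srgn hold ETS matches within the shaded centre while the Ctsc peak holds no RUNX match.

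The wider granule route was counted in the same way over a list of 32 other genes for SNAREs, Rab proteins, tethers, adaptors, motors and cathepsins, of which 31 were found by symbol (Vamp7 was not). A Runx3 peak lay within 20 kb of 20 of the 31 genes, to be read against the same 51.0%, and at an own start of 8, against 28.2%. The 8 were the syntaxins Stx4a (2 start peaks) and Stx6, the syntaxin-binding Stxbp3a, the late endosomal GTPase Rab7, the Rab27 effector Sytl1, the adaptor subunit Ap3d1, the actin regulator Coro1a (3 start peaks) and the protease Ctsl. The 11 genes with 0 peaks were Vti1b, Stx3, Stx7, Rab11a, Syt7, Ap3b1, Kif5b, Lamp2, Was, Ctsb and Ctsh. The other 12 had a peak in the window but none at a start, among them the SNARE genes Vamp8 and Snap23 and the Rab27 effector Sytl2, which had 4 peaks. The most peaks were found at Ap3d1 (8) and Vamp2 (7), with 56.6% and 54.9% of the window under H3K4me1. Over the 31 genes the median was 2 peaks, 1.91 per 100 kb, close to the 1.90 of the 9 members, and the median H3K4me1 cover was 12.7%, against 24.5% for the members. An own start lay inside an H3K4me1 region in 23 of the 31 genes, against 43.6% of protein-coding genes. Marked starts, found in 7 of the 9 members, were thus not particular to them.

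**Figure D5:**
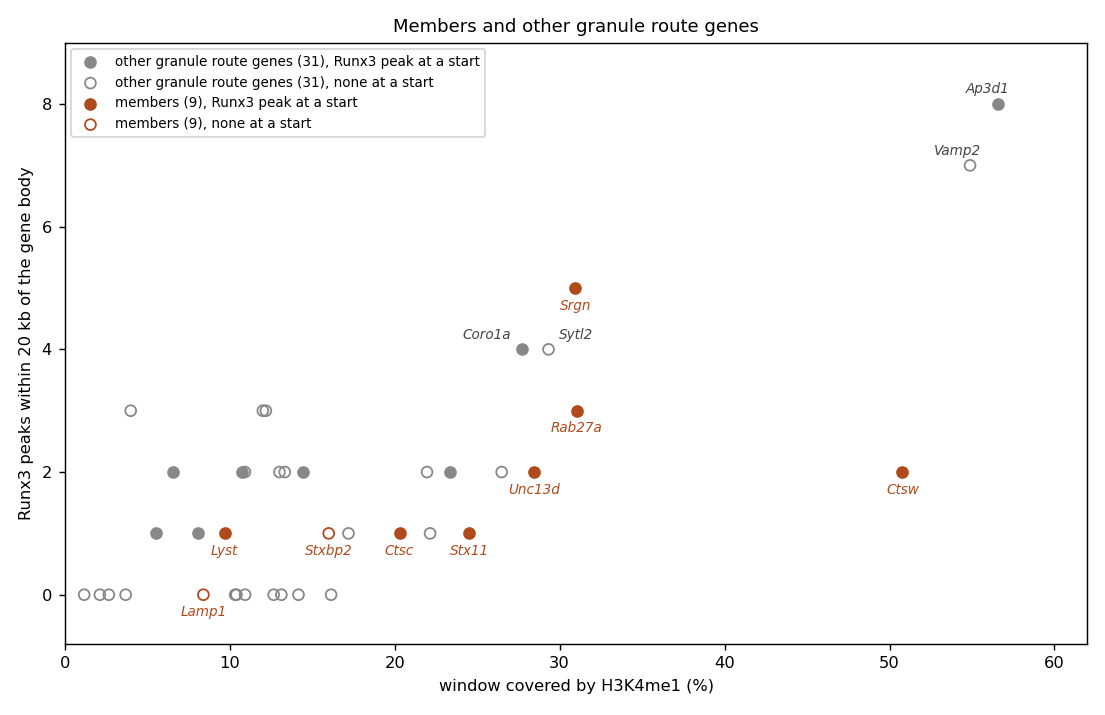
Runx3 peaks within 20 kb of the gene body against the share of the window covered by H3K4me1 (%), for the 9 members (brown) and 31 other granule route genes (grey). Filled circles have a peak within 1 kb of an own start, as 7 members and 8 other genes do, and Lamp1 lies at 0 peaks beside 11 of the other genes.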

How the data were processed

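ChIP-seq was done on resting splenic NK cells with antibodies to Runx3 and H3K4me1 and with NIS. By the labels and methods, the authors aligned reads of 40 bp to mm9 with ELAND (CASAVA 1.7 in the submitters' processing notes), kept unique alignments and called regions with MACS, with NIS as control. The methods describe joined reads of both biological repeats, whereas each label names a first experiment. The Runx3 list holds 15524 regions, the number that the study reports for resting NKC, so it was taken as the call on joined reads. For the H3K4me1 list the study's text gives no number to compare. The deposited lists hold region positions, and the Runx3 list also a running name. Neither holds a score, signal or read number, so no filter on strength could be applied. The methods give totals of aligned reads per sample, but the reads behind each region are unknown. MACS called each list as a whole, so a region under its threshold is absent here whatever its signal.

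Positions are 1-based on mm9 (NCBIM37 sequence, GENCODE vM1 genes), and 1 H3K4me1 region ended past its chromosome. Overlap needed 1 bp. The rule for naming took all 9 genes with all their peaks, and of the other pathway genes those with a start peak or with 0 peaks. Genes named beyond it were chosen after their values were seen, as were the gaps between regions, the central 300 bp for words, the split of peaks by a start of any gene and the choice of sequences. Sequence windows were moved within the peak where needed to hold no UTR base, and those of Unc13d, Stx11, Ctsw and the Srgn start are not shown. The members and lists were chosen with earlier results of these data known. Similar width means within 10%. Overlap, coverage and word search were tested on simulated data (Python 3.11.15, NumPy 2.4.6, SciPy 1.17.1). A count was taken as moved beyond 1.5 times and a share beyond its 95% interval.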

Additional observations from a re-analysis of the deposited data

How the results depend on the processing

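For 9 results 39 alternatives were computed, 1 of them added after seeing the data, and 33 stayed within the limits set. The number of the 9 genes with a Runx3 peak was 7 with no flank or 5 kb, 9 with 50 kb and 7 with only the wider peaks, while 33.6%, 39.8%, 62.6% and 35.1% of protein-coding genes had one. With 1 start per gene, 6 genes had a start peak, for which no share of all genes under the same rule is given here. The number of peaks rose from 16 to 28 with 50 kb and fell to 10 with only the wider peaks. Of the 31 other genes, 13 had a peak with no flank and 13 with only the wider peaks, in place of 20. The share of peaks in H3K4me1 was 75% by midpoint. The share with a RUNX word was 50% in the central 200 bp, against 69.1% of all peaks, and equally wide windows 5 kb downstream of the peaks held one in 75%, against 75.5% for all peaks. These downstream windows count among the 33 as within the limit. They are a comparison outside the peaks, so this shows only that the whole-peak share was not told apart from them. The limit for a share takes the 16 peaks as independent, although several lie in 1 window. No paired analysis was possible because each antibody has 1 deposited list. Leaving out a replicate was not possible for the same reason. With 16 peaks and no scores, small differences in shares are not detectable.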

Other observations

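Family members of the 9 genes were set beside them after the values were seen, by Runx3 peaks in the window. Rab27a and Rab27b, which encode closely related GTPases, had 3 peaks each, but a start peak was present at Rab27a only (1 against 0), and 31% and 12.0% of their windows were under H3K4me1. Unc13d had 2 peaks and Unc13b 3, with a start peak at Unc13d only (1 against 0) and 28.5% against 4.0% under H3K4me1. Stxbp2 had 0 start peaks and Stxbp3a 1, with 1 and 2 peaks in the window. Lamp1 and Lamp2 both had 0 peaks, with 8.41% and 1.18% under H3K4me1. These differences were not tested.

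Widening the flank to 50 kb added 12 peaks. The peak nearest to the Lamp1 gene body was then included, 37791 bp past its 3′ end (chr8:13213129-13214204), intergenic, with the start of Grtp1 as the nearest at 13046 bp. Lyst gained 2 intergenic peaks, 25681 and 33134 bp from its start, for which that start was the nearest of any gene, and both overlapped H3K4me1. For all the other added peaks the nearest start belonged to a gene outside the members. Several were centred close to such a start, 47 bp from that of Unk, 110 bp (Snx32), 120 bp (Trappc5), 133 bp (H3f3b) and 243 bp (AI837181).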
